A study of Mus musculus with 15 samples.

Results

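Malat1, Neat1, Meg3, Rian, Mirg, Miat, Snhg11 and H19 are 8 long noncoding RNAs of the mouse, and each was taken from the gene table by its symbol, where each has 1 line. They are 8 of the 54108 symbols in the table, and all 8 were among the 16000 genes that were tested. The genes tested are those whose mean reached 1 CPM (reads times 1 scaling step per library). The study sequenced polyadenylated RNA from sensory neurons of the lumbar dorsal root ganglia of female mice (C57BL/6J, 8 to 12 weeks of age), with 1 library for each of 15 mice. The neurons had been labeled from the hindpaw skin with the lectin WGA-488 and sorted by fluorescence, about 3000 cells a mouse. The naïve group (n = 5) had no surgery and was housed in groups. The sham group (n = 5) had a laminectomy at T10 alone, and the SCI group (n = 5) had the laminectomy and a clip compression of the spinal cord at that level. Mice of the operated groups received gentamicin and saline, were caged singly and were taken 4 days after surgery, so that surgery, housing and these treatments cannot be told apart where sham or SCI mice are compared with naïve mice.

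Long noncoding RNAs act as RNA and are not translated. Malat1 gathers in nuclear speckles, where splicing factors are stored, and Neat1 is the RNA around which paraspeckles are built. Meg3, Rian and Mirg lie in a row in the imprinted Dlk1-Dio3 domain, where the maternal chromosome expresses them and the paternal chromosome expresses protein-coding genes such as Dlk1. Rian carries small nucleolar RNAs (snoRNAs) and Mirg a cluster of microRNAs (miRNAs) in its introns and exons. Miat, also called Gomafu, is a nuclear RNA of neurons that binds splicing factors, Snhg11 is a snoRNA host gene, and H19 is a maternally expressed RNA of the fetus that holds the miRNA miR-675 and is low in most adult tissues.

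In the GENCODE M21 annotation of the GRCm38 (mm10) genome, which is the build the authors used, Malat1 (ENSMUSG00000092341.3) lies at chr19:5795690-5802672 and Neat1 (ENSMUSG00000092274.3) at chr19:5824708-5845478, both on the minus strand. On the plus strand of chromosome 12 follow Meg3 (ENSMUSG00000021268.17, chr12:109541001-109571726), Rian (ENSMUSG00000097451.10, chr12:109603940-109661716) and Mirg (ENSMUSG00000097391.8, chr12:109729764-109749460). Miat (ENSMUSG00000097767.8) lies at chr5:112213228-112229395 on the minus strand, Snhg11 (ENSMUSG00000044349.15) at chr2:158375638-158386145 on the plus strand and H19 (ENSMUSG00000000031.16) at chr7:142575529-142578143 on the minus strand. GENCODE types Snhg11 as protein-coding, Rian as a processed transcript and the other 6 as lincRNA. A gene with its own line overlaps Malat1, Meg3 and Miat on the opposite strand, and only that of Miat, Gm26953, had reads (91 in all libraries, against 31737 for Miat). The strand setting of the counting is not given in the sources used here, so reads of Miat and Gm26953 cannot be told apart.

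The small RNAs inside these genes show what the hosts are known for, and the polyadenylated libraries did not measure them. GENCODE places 13 snoRNA genes and 4 miRNA genes inside Rian, 15 miRNA genes inside Mirg, 2 miRNA genes inside Meg3, 2 snoRNA genes inside Snhg11 and 1 miRNA gene inside H19. RefSeq (GRCm38.p6) gives 37 mature miRNAs within the members, of which 26 lie in Mirg, 6 in Rian, 3 in Meg3 and 2 in H19. Their seeds (bases 2 to 8, in capitals below) are nearly all different, with 36 seeds among 37 miRNAs. The shared one belongs to miR-453 and miR-496a-5p of Mirg, which are printed together with 2 further miRNAs of Mirg and those of its neighbours and of H19 to show how the seeds differ within the Dlk1-Dio3 domain and from those of H19 on chromosome 7.
mmu-miR-453: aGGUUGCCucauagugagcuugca
mmu-miR-496a-5p: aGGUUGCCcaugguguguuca
mmu-miR-134-5p: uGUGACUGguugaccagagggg
mmu-miR-410-3p: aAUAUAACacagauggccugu
mmu-miR-370-3p: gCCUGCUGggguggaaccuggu
mmu-miR-770-5p: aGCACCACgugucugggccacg
mmu-miR-675-5p: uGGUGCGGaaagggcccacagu
mmu-miR-675-3p: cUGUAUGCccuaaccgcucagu

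MiR-370-3p comes from Rian, miR-770-5p from Meg3 and the miR-675 pair from H19. Of the 22 miRNA lines inside members, 5 had any reads, all within Mirg, with 34 reads in all libraries together, of which Mir3072 had 19 and Mir453 had 10. Of the 15 snoRNA lines, 1 had reads, Gm25129 within Snhg11, with 103 reads spread over all 15 libraries. The hosts had more, with 2521 reads for Mirg and 46445 for Snhg11.

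Because the kit selects RNA with a poly(A) tail, the annotated 3′ ends bear on what could be measured. The last 30 bases of the longest transcript of each gene, and of the short Neat1 transcript, are printed with the polyadenylation hexamers AATAAA or ATTAAA in capitals, searched on the transcript strand only.
Malat1-201: ttttatgaAATAAAaactaaatatctctca
Neat1-201: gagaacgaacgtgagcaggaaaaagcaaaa
Neat1-202: tttacagcaaAATAAAggtttgagattgaa
Meg3-209: gctttcAATAAAtttcttgttttaactaaa
Rian-201: atacttatatgagtgaaaaAATAAAaaaaa
Mirg-204: gaatAATAAAcatatgtcatataatgtaaa
Miat-205: atttcaatATTAAAaccgacacacactgga
Snhg11-201: gaaccacaaAATAAAcactgtcttccttaa
H19-202: ggtccatcAATAAAtacagttacagtcatt

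The long Neat1 transcript of 20771 nucleotides holds neither hexamer in this window, whereas the short one of 3004 nucleotides holds AATAAA. Among the longest transcripts of all 55450 GENCODE genes, AATAAA stands in the last 30 bases of 26.6% and ATTAAA in 8.07%. Malat1 is known to be cut upstream of its annotated end, where a genomic A-rich tract forms the 3′ end of most of its RNA and pairs with U-rich stretches upstream. This tract is printed because it takes the place of a poly(A) tail. It covers positions 6594 to 6693 of Malat1-201 (chr19:5795980-5796079, minus strand), with its run of 12 A in capitals.
Malat1-201 tract: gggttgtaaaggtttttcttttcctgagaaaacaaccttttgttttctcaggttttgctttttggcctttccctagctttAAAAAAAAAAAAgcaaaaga

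A run of 12 A occurs in 5.60% of the longest transcripts of all genes and in 4.20% of those typed lincRNA. The short sequence ACTAAC, which forms the core of the repeats that Miat is known for, occurs 11 times in Miat-205 and at most 4 times in the longest transcript of any other member, the 4 being in Neat1-201. In the longest transcripts of all genes on their own strand, ACTAAC occurs at least 1 time in 17.8% and at least 11 times in 0.0162% (9 of 55450).

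Library depth differed between mice and enters every value below. Reads per library ran from 1321632 to 7465583 in the naïve group, from 2568656 to 7389487 after sham surgery and from 3000636 to 4385542 after SCI, with naïve 1 and naïve 4 the shallowest and naïve 5 and sham 1 the deepest. The members took 0.166% to 0.393% of the reads of a library, and each except H19 had at least 32 reads in every library. Defining markers of nociceptors were all detected (10 of 10 tested), and so were those of satellite glia (10 of 10) and Schwann cells (8 of 8), with Scn10a, a nociceptor sodium channel, at a mean of 817 CPM. Fewer cells of a type and less RNA per cell cannot be told apart in these bulk libraries.

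The 8 RNAs spanned a wide range of abundance. The CPM values are not divided by gene length, and by their means Snhg11 stood 16th, Malat1 44th and Miat 49th of all symbols. Per kilobase of exon, Snhg11 was highest at 106 ± 31.8 CPM per kb (SD, n = 15), followed by Malat1 at 85.7 ± 24.4 and Miat at 62.7 ± 12.9. Neat1 stood at 11.8 ± 2.45 CPM per kb, Rian at 10.3 ± 2.68, Meg3 at 6.99 ± 2.82, Mirg at 5.78 ± 1.12 and H19 at 2.66 ± 3.11. The steps from Snhg11 to Malat1, from Malat1 to Miat, from Neat1 to Rian and from Meg3 to Mirg were smaller than the larger SD of each pair. Within a library Snhg11 was nevertheless above Malat1 in 15 of 15 libraries per kilobase, Malat1 above Miat in 14, Neat1 above Rian in 13 and Meg3 above Mirg in 10. The value of Neat1 uses the exons of its long form, and the share of its reads that came from the short form was not measured. Most Malat1 RNA ends in the A-rich tract printed above in place of a poly(A) tail. How far these libraries captured it was not measured, so its place in the order is that of its captured reads.

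**Figure D1:**
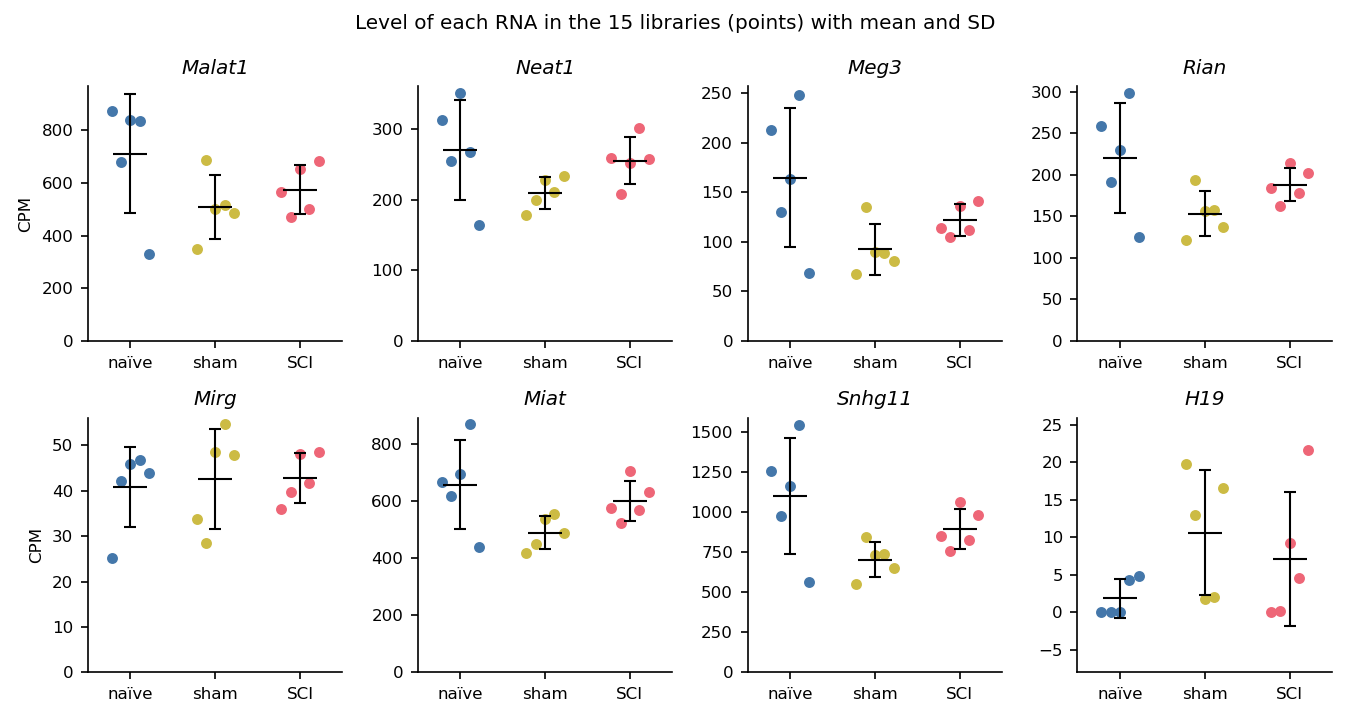
CPM of each of the 8 RNAs in every library, with 5 points a group for naïve, sham and SCI mice and the group mean and SD as a bar and whiskers; the vertical axis starts at 0 except for H19, whose SD reaches below 0. In Malat1, Neat1, Meg3, Rian, Miat and Snhg11 the naïve points hold the highest value of the panel and, in naïve 5, its lowest value or the one next to it. In Mirg the group means lie between 40.8 and 42.8 CPM.

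Of the RNAs of nuclear bodies, Malat1 stood at 872, 679, 841, 837 and 329 CPM in naïve libraries 1 to 5. In sham mice it stood at 349.5, 689, 500.1, 515 and 488 CPM, and in SCI mice at 566, 469, 654, 502 and 682 CPM. The naïve mice held both the highest value and the lowest, which was naïve 5. Neat1 stood at 313, 254, 352, 267 and 164 CPM in naïve, 178, 199, 228, 210.5 and 234 CPM in sham and 259, 208, 253, 302 and 257 CPM in SCI mice. Sham and SCI mice overlapped for Neat1 only in that SCI 2 lay below the sham mice 3, 4 and 5. The ratio of Malat1 to Neat1 ran from 1.66 in SCI 4 to 3.46 in sham 2, with means of 2.60 ± 0.424 for naïve, 2.43 ± 0.602 for sham and 2.27 ± 0.395 for SCI libraries (SD, n = 5 each). The log2 of this ratio had a Pearson's r of -0.71 with the log2 of the reads in the library.

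Of the RNAs of the Dlk1-Dio3 domain, Meg3 varied most among the members other than H19. It stood at 213, 130.4, 163, 248 and 68.8 CPM in naïve, 67.9, 135, 89.5, 89.1 and 80.5 CPM in sham and 115, 105, 136, 112 and 141 CPM in SCI mice. Its lowest values, in naïve 5 and sham 1, came from the deepest libraries, and its highest, in naïve 4 and naïve 1, from the shallowest. The reads behind these values ranged from 269 to 492, while the libraries ranged from 1321632 to 7465583 reads. Rian stood at 259, 191, 229, 298 and 125 CPM in naïve, 122, 194, 156, 158 and 137 CPM in sham and 184, 162, 215, 178 and 202 CPM in SCI mice, with the same libraries at either end. Mirg stood at 25.3, 42.2, 45.9, 46.8 and 44.0 CPM in naïve, 33.8, 28.5, 48.5, 54.7 and 47.9 CPM in sham and 35.9, 39.8, 48.1, 41.8 and 48.5 CPM in SCI mice. Its lowest values were in naïve 1 and sham 2, and the shallow library naïve 4 was the highest of its group. The value of naïve 1 rested on 32 reads, for which an exact Poisson interval is 17.3 to 35.7 CPM (95%, covering counting error only).

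The 3 neighbours therefore did not keep one proportion over the libraries, and their ratios followed library depth. The log2 of Mirg over Meg3 had a Pearson's r of 0.95 with the log2 of the reads in the library. That of Meg3 over Rian had an r of -0.98. Mirg was 0.119 of Meg3 in naïve 1 and 0.640 of it in naïve 5, with means of 0.310 ± 0.201 for naïve, 0.492 ± 0.164 for sham and 0.352 ± 0.0257 for SCI libraries (SD, n = 5 each). The ratio of Meg3 to Rian stayed between 0.550 and 0.833, with its lowest value in naïve 5 and its highest in naïve 4.

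Of the neuronal RNAs, Miat stood at 667, 618, 694, 869.7 and 439 CPM in naïve, 418, 449, 537, 556 and 487 CPM in sham and 575, 522, 704, 569.8 and 630.1 CPM in SCI mice. Snhg11 stood at 1258, 978, 1163, 1540.0 and 566 CPM in naïve, 549.7, 842, 730.5, 739 and 654 CPM in sham and 849, 758, 1065, 827 and 982 CPM in SCI mice. For both genes naïve 4 was highest and sham 1 lowest, and the SCI mice lay above all sham mice except SCI 2 for Miat and SCI 2 and SCI 4 for Snhg11. The ratio of Miat to Snhg11 ran from 0.530 in naïve 1 to 0.776 in naïve 5. The log2 of this ratio had a Pearson's r of 0.94 with the log2 of the reads in the library.

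H19 was the rarest member and the most uneven. It had 0 reads in naïve 1, 2 and 3, which allows up to 2.37, 0.973 and 1.24 CPM at 3 reads each, and stood at 4.39 and 4.92 CPM in naïve 4 and 5. In sham mice it stood at 19.7, 13.01, 1.77, 1.99 and 16.7 CPM, and in SCI mice at 0, 0.239, 9.23, 4.65 and 21.6 CPM. The 0 in SCI 1 allows up to 0.849 CPM. High and low mice thus occurred within both operated groups, and the sham and naïve groups overlapped at the 2 low sham mice. Its neighbour Igf2, the paternally expressed growth factor gene of the same domain, had a mean under 1 CPM and was not tested.

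No gene passed the adjusted threshold of 0.05 in any comparison, so the background of calls by limma is 0% for SCI against naïve, 0% for SCI against sham and 0% for sham against naïve, and 0 of 8 members were called. At an unadjusted limma p under 0.05 stood 724 genes (4.53%) for SCI against naïve, 623 genes (3.89%) for SCI against sham and 2651 genes (16.6%) for sham against naïve. The edgeR quasi-likelihood test on the recovered reads called 0 genes (0%) in each comparison. DESeq2 called 0 of 15988 genes (0%) for SCI against naïve, 4 of 15988 (0.0250%) for SCI against sham and 233 of the 1111 genes to which it gave an adjusted p (21%) for sham against naïve, all 233 lower in sham mice. The groups overlapped for 8 of 8 members in every comparison, against 74 genes (0.463%) without overlap for SCI against naïve, 242 (1.51%) for SCI against sham and 103 (0.644%) for sham against naïve. The comparisons share mice, and so are not independent of each other.

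For SCI against naïve, 6 of 8 members had differences below 0, with a median of -0.14 on the log2(CPM + 1) scale beside 0.08 over all genes tested, and 0 of 8 had an unadjusted p under 0.05. Meg3 differed by -0.31 (SE 0.26, exact permutation p = 0.373), Malat1 by -0.24 (SE 0.23, p = 0.429 in the same exact test) and Snhg11 by -0.23 (SE 0.20, exact permutation p = 0.405). Mirg differed by 0.09 (SE 0.19) and H19 by 1.13 (SE 0.85), the latter from 0.54 without SCI 5 to 1.67 without SCI 1, and at 2.10 with a pseudocount of 0.1 and 0.61 with one of 5. Without naïve 5, Meg3 was at -0.59, Malat1 at -0.50, Snhg11 at -0.45 and Rian at -0.36, and these 4 members were lower at an unadjusted limma p under 0.05, against 479 genes (3%), with 0 genes called. The naïve libraries left in that fit held 1321632 to 3228060 reads, against 3000636 to 4385542 in SCI libraries. Without naïve 4, Meg3 was at -0.13, Snhg11 at -0.09 and Rian at -0.05, and without naïve 1 Malat1 was at -0.15. By limma all 8 had an adjusted p of at least 0.898, and the 95% intervals of Meg3 (-0.85 to 0.22) and Snhg11 (-0.66 to 0.19) admit differences in either direction.

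For SCI against sham, 7 of 8 members had differences above 0, with a median of 0.29 beside -0.07 over all genes, and 0 of 8 had an unadjusted limma p under 0.05. The largest values of that sign were those of Meg3 at 0.43 (SE 0.26), Snhg11 at 0.35 (SE 0.20), Rian at 0.30 (SE 0.18) and Miat at 0.29 (SE 0.14). The exact permutation test has a smallest possible two-sided p of 0.00794 with 5 mice a group. Its p was 0.0238 for Snhg11, 0.0317 for Miat, 0.0397 for Neat1, 0.0556 for Meg3 and 0.0635 for Rian. For Malat1, H19 and Mirg it was 0.349, 0.413 and 0.825. These p were not adjusted over the 8 members, and the share of all genes at such a p was not computed. The unadjusted limma p was 0.0964 for Snhg11, 0.0569 for Miat and 0.0915 for Neat1. By limma the adjusted p was 0.897 or more for all 8. Naïve 5 is in neither group but enters this fit. When it was left out, 5 of 8 members were higher in SCI mice at an unadjusted limma p under 0.05. Of 15976 genes, 219 were higher and 675 lower at such a p, and 0 were called.

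For sham against naïve, 6 of 8 members had differences below 0, with a median of -0.42 beside 0.17 over all genes tested. By limma at an unadjusted p under 0.05, 4 members were lower, against 510 genes (3.19%), and 1, H19, was higher, against 2141 genes (13.4%). Meg3 differed by -0.74 (SE 0.26), Snhg11 by -0.59 (SE 0.20), Rian by -0.48 (SE 0.18) and Miat by -0.40 (SE 0.14), each at an adjusted limma p of 0.30. H19 differed by 2.08 (SE 0.85), also at an adjusted limma p of 0.30 and an unadjusted exact permutation p of 0.0476. It was at 3.91 with a pseudocount of 0.1 and 1.06 with one of 5. DESeq2 called 3 members lower in sham mice, namely Neat1 at -0.53, Miat at -0.60 and Snhg11 at -0.82. Each had a DESeq2 adjusted p of 0.0486. These calls stand against 233 of the 1111 genes to which DESeq2 gave an adjusted p (21%), all 233 lower in sham mice. It gave no adjusted p for Meg3, Rian, Mirg and H19. With naïve 5 left out, limma called 1752 of 15976 genes in this comparison (11%), 540 lower (3.38%) and 1212 higher (7.59%), and the 6 members among the lower ones were Malat1 (-0.69), Neat1 (-0.49), Meg3 (-1.02), Rian (-0.67), Miat (-0.54) and Snhg11 (-0.81), with adjusted p between 0.0277 and 0.0280. The naïve libraries left held 1321632 to 3228060 reads, against 2568656 to 7389487 in sham libraries. Depth and group were not separated in this fit. With any other library left out, 0 genes were called.

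**Figure D2:**
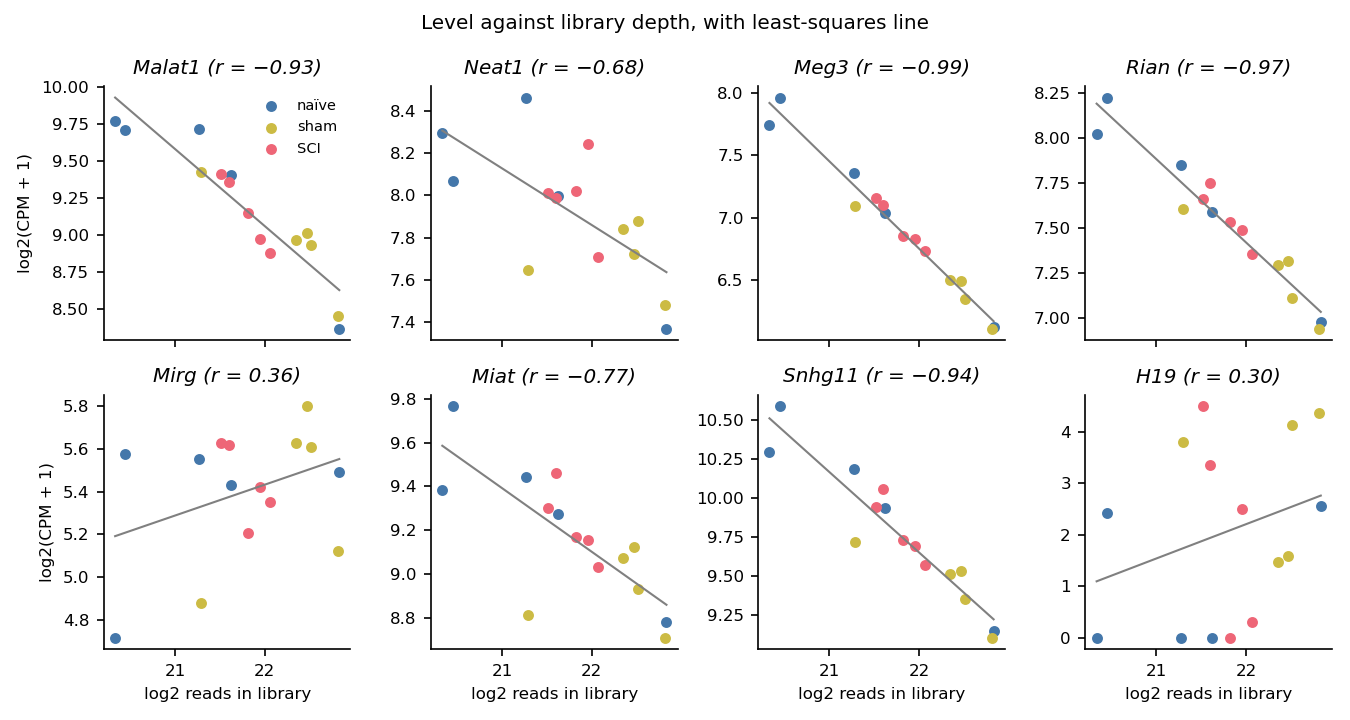
log2(CPM + 1) of each RNA against the log2 of the reads in its library, 1 point for each of 15 libraries, colored by group, with the least-squares line. Points of all groups share a falling line for Malat1, Meg3, Rian and Snhg11, a looser one for Miat and Neat1, and no falling line for Mirg and H19.

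The levels of 6 of the 8 members were lower in deeper libraries. Over the 15 libraries, log2(CPM + 1) of Meg3 had a Pearson's r of -0.99 with the log2 of the reads and a Spearman's rho of -0.98, each at the smallest p that 100000 permutations can give (permutation p = 1.0e-05), with adjusted p = 1.7e-04 and 2.5e-04 over all 16000 genes. It fell by 0.70 on the log2 scale with each doubling of depth, and the line took 97.4% of its variance. Reads enter both axes, since nearly all of them form the divisor of the CPM, and most genes went the other way: the median r over all genes was 0.52.

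Rian had an r of -0.97 and a rho of -0.97, Snhg11 of -0.94 and -0.95, and Malat1 of -0.93 and -0.96, with adjusted permutation p of at most 2.5e-04 for each. Miat had an r of -0.77 and a rho of -0.78 (adjusted permutation p = 0.00265 and 0.00426) and Neat1 an r of -0.68 and a rho of -0.71 (adjusted permutation p = 0.0126 and 0.0130). Mirg, with an r of 0.36 and a rho of 0.18, and H19, with 0.30 and 0.32, did not pass (adjusted permutation p between 0.237 and 0.585). Against these 6 of 8 members, 1682 genes (10.5%) were lower with depth at an adjusted p under 0.05, and 7174 (44.8%) were higher. Only 80 genes of 16000 had an r below that of Meg3, which stood 81st from the lowest, and 660 genes (4.13%) had an r below -0.9.

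The relation held within groups for 4 members. Within the 5 mice of each group, r with depth was between -0.98 and -0.99 for Meg3, between -0.92 and -0.97 for Rian, between -0.85 and -0.96 for Snhg11 and between -0.905 and -0.998 for Malat1. For Miat it was -0.89 in naïve and -0.87 in SCI but 0.11 in sham mice, and for Neat1 -0.78 among naïve, -0.02 among sham and -0.23 among SCI mice. Without naïve 1 and naïve 4, the libraries farthest from the median of log2 reads, r was -0.99 for Meg3, -0.96 for Rian, -0.93 for Malat1, -0.92 for Snhg11, -0.67 for Neat1 and -0.66 for Miat.

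Other RNAs moved with depth too, and their part in the members' levels was not tested. The summed level of the 13 mitochondrially encoded mRNAs, 6 of which had a mean under 1 CPM, ran from 819.6 to 2960 CPM in the naïve group, from 852 to 1901 CPM after sham surgery and from 1207 to 1601 CPM after SCI (r with depth -0.99). The 10 nociceptor markers summed to 2978 to 5638 CPM in naïve and 2787 to 4086 in sham mice (r = -0.98), the 10 satellite glia markers to 1613 to 3440 and 1693 to 2461 CPM (r = -0.94), and the 8 Schwann cell markers to 1114 to 2269 and 1083 to 1519 CPM (r = -0.94). The r of these nociceptor and glial sums thus had the same sign, which need not hold for each marker. For sham against naïve, 10 of 10 nociceptor, 7 of 10 satellite glia and 8 of 8 Schwann cell markers had differences below 0. Among the satellite glia markers, Slc1a3 differed by 0.31 and Apoe by -0.79. The 10 fibroblast and mural cell markers, all tested, summed to 841 to 2246 CPM in naïve, 898 to 1179 CPM in sham and 802 to 1346 CPM in SCI mice (r = -0.25), with Col1a2, a fibrillar collagen gene, at a mean of 280.0 CPM. Macrophage markers summed to 12.2 to 99.0 CPM over all libraries, endothelial markers to 4.87 to 26.9 CPM, and erythrocyte markers, with 0 of 5 tested, to at most 6.92 CPM.

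When the log2 of the reads was added to the limma fit as a term, the group differences of 7 of 8 members were smaller in size in each comparison. The exceptions were Neat1 for SCI against naïve, from -0.04 to 0.07, and Mirg, from 0.04 to 0.13 for SCI against sham and from 0.05 to -0.13 for sham against naïve. For sham against naïve, Meg3 went from -0.74 to -0.06 (SE 0.08), Snhg11 from -0.59 to -0.11 (SE 0.10), Rian from -0.48 to -0.03 (SE 0.08) and Miat from -0.40 to -0.16 (SE 0.13), and Malat1 turned from -0.44 to 0.11 (SE 0.12). H19 kept a value of 2.02 (SE 1.04). For SCI against sham, Meg3 went from 0.43 to 0.09 (SE 0.07) and Snhg11 from 0.35 to 0.11 (SE 0.09), and Malat1 turned from 0.19 to -0.08 (SE 0.10). For SCI against naïve, every member lay between 0.00 and 0.07 except H19 at 1.11. No member had an unadjusted limma p under 0.05 in this fit, and the 95% intervals were -0.23 to 0.10 for Meg3 and -0.32 to 0.10 for Snhg11 in sham against naïve. Depth and group overlap in this design, since 4 of the 5 deepest libraries are sham libraries and the 2 shallowest are naïve, so the term also takes up part of any difference between these groups.

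**Figure D3:**
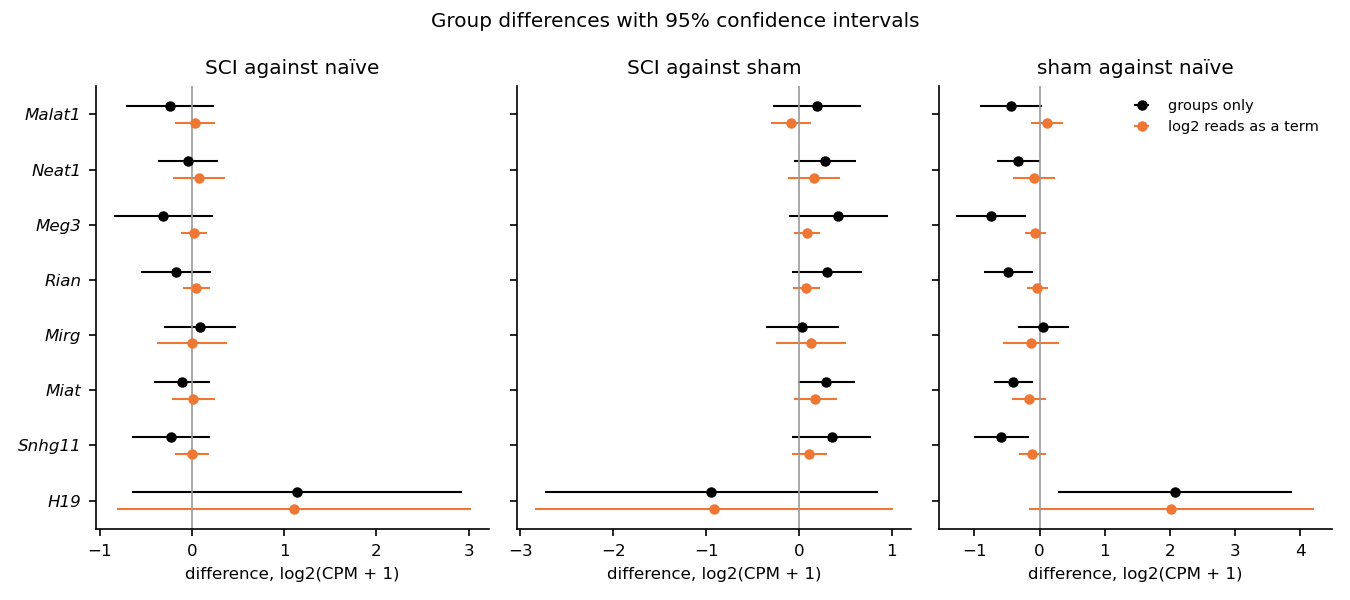
Difference on the log2(CPM + 1) scale between groups for each RNA, with 95% confidence intervals from limma, for groups alone (black) and with log2 reads as a term (orange). In the fit with depth, the points of all RNAs but H19 lie between -0.16 and 0.17, and the interval of Meg3 is shorter than without the term in every panel.

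Among the 10 pairs of Meg3, Rian, Mirg, Miat and Snhg11, r rose most for the 4 pairs with Mirg once depth was removed. It also rose for Miat with Meg3 (0.850 to 0.883), with Rian (0.889 to 0.893) and with Snhg11 (0.930 to 0.968). The remaining pairs, among Meg3, Rian and Snhg11, had a lower r. As measured, Meg3 and Rian had an r of 0.99 over the 15 libraries, Rian and Snhg11 0.99, and Mirg lay apart, with r of -0.22 with Meg3, -0.15 with Rian and -0.07 with Snhg11. After the line on log2 reads was taken out of each gene, the r of Mirg was 0.90 with Meg3, 0.85 with Rian, 0.87 with Miat and 0.90 with Snhg11. All 10 pairs then lay between 0.85 and 0.97, the highest being Miat and Snhg11.

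These values are descriptions over libraries that share their preparation, and the other genes whose mean reached 10 CPM give their scale. Among 11580 such genes Meg3 stood 8811th in likeness to Mirg as measured and 8th after depth was removed, with Snhg11 9th, Miat 25th and Rian 33rd, while the median r of all genes with Mirg after depth was -0.03. Malat1 and Neat1 had r after depth of 0.36 to 0.52 with each other and with the 5 RNAs, and leaving out 1 library moved these values to between 0.17 (Neat1 and Mirg, without sham 2) and 0.75 (Malat1 and Mirg, without naïve 4). H19 had r of -0.33 to 0.04 with the other 7, and of -0.41 to 0.24 with 1 library left out.

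The pair of libraries that lay lowest below the depth line was the same for these 5 RNAs. On the log2 scale naïve 1 lay at -0.47 from it for Mirg, -0.21 for Snhg11, -0.20 for Miat, -0.18 for Meg3 and -0.17 for Rian, and sham 2 at -0.45, -0.30, -0.49, -0.16 and -0.14 in the same order. Leaving out any 1 library kept all 10 correlations between 0.78 and 0.98. Without both naïve 1 and sham 2, a choice made after seeing the data, they lay between 0.58 (Rian and Mirg) and 0.94 (Miat and Snhg11), and Mirg with Meg3 was at 0.72.

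**Figure D4:**
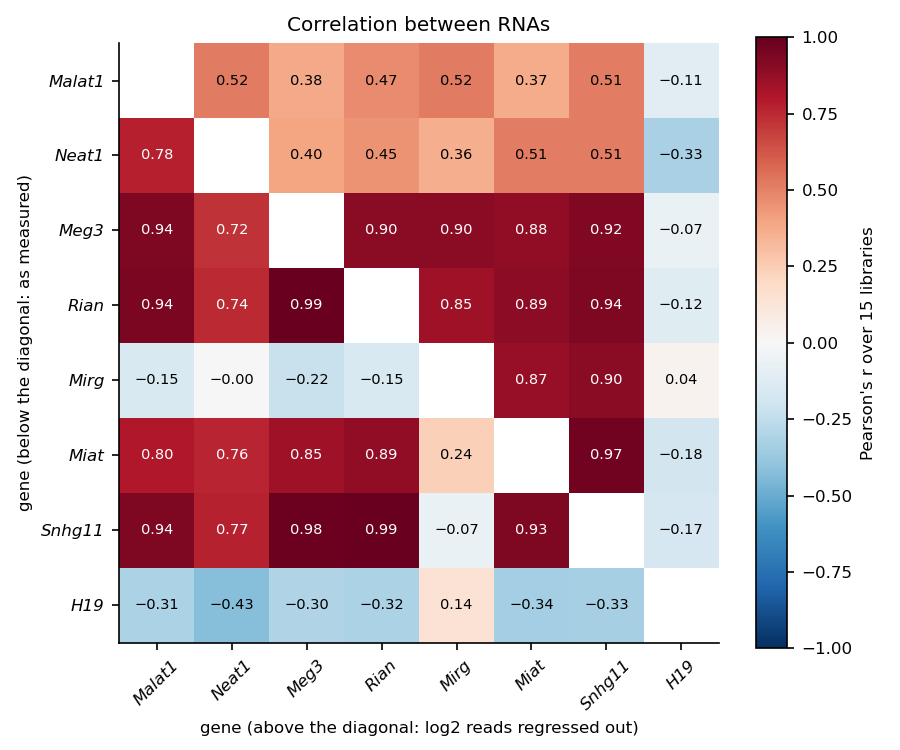
Pearson's r between the RNAs over the 15 libraries on the log2(CPM + 1) scale, below the diagonal as measured and above it with log2 reads regressed out. Mirg lies between -0.22 and 0.24 below the diagonal and between 0.85 and 0.90 with Meg3, Rian, Miat and Snhg11 above it.

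The genes closest to each member, by the highest r as measured among the 11580 others, overlapped only among Meg3, Rian and Snhg11. For Malat1 they were the spectrin gene Sptbn1, the mitochondrial mt-Nd6 and Ndrg1 (all at r = 0.96), and for Neat1 the kinase gene Aatk (0.94), the splicing factor gene Srsf5 (0.94) and Bcan (0.93), a proteoglycan gene. For Meg3 they were Rian (0.99), the glycolytic gene Gpi1 and the chaperone gene Hsp90aa1 (both 0.99), for Rian they were Snhg11, Meg3 and Gpi1, and for Snhg11 they were Rian, Meg3 and Nrbp2 (0.98). For Miat they were Srrm2 (0.97), which encodes a core protein of nuclear speckles, Rbms1 (0.96) and Leng8 (0.95), and for Mirg the kinase gene Lmtk3 (0.95), A230050P20Rik (0.93) and the phosphatase gene Ssh3 (0.91). Srrm2 kept an r of 0.93 with Miat and Lmtk3 an r of 0.94 with Mirg after depth was removed, while Hsp90aa1 went to 0.32 with Meg3.

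Companion genes of the domain had few reads or differences of the other sign. Of the 6 other genes of the Dlk1-Dio3 region that were listed, Rtl1 and Dio3os had 0 reads in every library, Dlk1 had a mean of 0.188 CPM and Dio3 of 0.00947 CPM, and 2 were tested. These were Begain, at 7.77 ± 4.10 CPM in naïve and 12.2 ± 1.91 in sham mice (difference 0.69, SE 0.32), and Wdr25, at 11.7 ± 5.50 and 17.5 ± 4.47 CPM (0.60, SE 0.23), both with an adjusted limma p of at least 0.30. The list had a median of 0.65 for sham against naïve beside 0.17 over all genes, and no member of it was called. Its summed level had an r of 0.89 with the log2 of the reads, and 44.8% of all genes tested were higher with depth at an adjusted permutation p under 0.05. The part of depth in these differences was not tested.

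Of the 44 other imprinted genes listed, 35 were tested and 0 were called in any comparison. For sham against naïve 5 were higher and 2 lower at an unadjusted limma p under 0.05, with a median of 0.14. Over all genes tested, 13.4% were higher and 3.19% lower at such a p, with a median of 0.17. Peg3, a paternally expressed zinc finger gene and the most abundant, was at 576 CPM (naïve), 548 CPM (sham) and 588 CPM (SCI). Snrpn differed by -0.52 (SE 0.22) and Nap1l5 by -0.33 between sham and naïve, whereas Snhg14, a snoRNA host transcript of the Snrpn region, differed by 0.44 and Usp29 by 0.69.

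The 35 further long noncoding and snoRNA host RNAs listed had 22 tested members and 0 calls, with 1 higher and 1 lower at an unadjusted limma p under 0.05 for sham against naïve and a median of 0.25. Among all genes tested, 13.4% were higher and 3.19% lower at such a p, with a median of 0.17. Gas5 was at 83.8 CPM (naïve), 73.1 CPM (sham) and 82.7 CPM (SCI), and Tug1 at 97.2, 115 and 103 CPM.

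Genes for proteins that work with Malat1 and Neat1, those of paraspeckles and nuclear speckles, gave medians near 0. Over all genes tested the medians were 0.08 for SCI against naïve, -0.07 for SCI against sham and 0.17 for sham against naïve. Of 16 paraspeckle protein genes, 16 were tested and 0 called, with medians of -0.01 for SCI against naïve, 0.03 for SCI against sham and 0.01 for sham against naïve. Of 26 nuclear speckle and splicing factor genes 0 were called by limma, with medians of 0.05, 0.04 and 0.02 in the same order. DESeq2 called 2 of them for sham against naïve, against 21% of the genes to which it gave an adjusted p. These were Srrm2 (-0.37, limma SE 0.14) and Srsf5 (-0.28), both lower in sham mice with a DESeq2 adjusted p of 0.0486. Of 9 genes of RNA 3′ end processing 0 were called, and Elac2, which encodes the RNase Z that acts on the fragment released from Malat1, was at 48.9, 49.2 and 49.8 CPM in naïve, sham and SCI mice.

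All 7 mitochondrial mRNAs that were tested had differences below 0 for sham against naïve, with a median of -0.67, and 7 of 7 had an unadjusted limma p under 0.05. Over all genes tested the median was 0.17, and 3.19% were lower at such a p. DESeq2 called 4 of the 7 lower, against 21% of the genes to which it gave an adjusted p. Their values are given because mt-Nd6 was among the genes closest to Malat1, and their part in the values of the members was not tested.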

How the data were processed

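RNA from sorted neurons of 15 mice was sequenced as single-end reads of 75 bases. The authors aligned them with HISAT2 to mm10 and counted them with HTSeq, per the labels, with no versions given. The deposited values carry the name RPKM but are a signal of whole reads times 1 step per library. That step scales the reads of the first 19999 lines, 94.9% to 95.8% of the reads of a library, to a common total. Of the values, 100% were whole at a tolerance of 1e-06, so reads were recovered as counts, and the values are called CPM. The authors' group mean columns were checked against the libraries and not used further. Counting strand, annotation and duplicate handling are not given in the sources used here. Of 54232 lines 27 without a gene name were left out, and for the 97 repeated symbols the line with the highest mean was kept.

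The members and lists were chosen with earlier results of these data known. The 16000 genes whose mean reached 1 CPM were tested on log2(CPM + 1) with limma 3.58.1 in R 4.3.3, with Benjamini-Hochberg adjustment over all of them at 0.05, and single members with two-sided exact permutation tests. DESeq2 1.42.0, edgeR 4.0.16 and the alternatives given at the end were also run. Relations to depth used 100000 permutations. The tests were checked on simulated data. Sequences and positions came from GENCODE M21 and RefSeq (GRCm38). Named genes were the 8 members, the 3 genes with the highest r per member among those whose mean reached 10 CPM, list genes past a threshold and the most abundant of each list, and small RNAs inside members. Some genes outside this rule (Igf2, Elac2, Gas5, Tug1, Rtl1, Dlk1, Dio3, Dio3os) were named after their values were seen.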

Additional observations from a re-analysis of the deposited data

Results flagged for a closer look

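Mirg in naïve 1 stood at 25.3 CPM, below the other naïve libraries, of which the nearest was at 42.2 CPM, and this gap was 0.786 of the range of the group. Among the 24 groups of values looked at, this was the only library that stood apart in this way. Chance alone gives about 1 in 20 for each group, so 1 such library among 24 groups is about what chance gives. Naïve 1 was the shallowest library, with 32 reads of Mirg, and also lay below the depth line for Meg3, Rian, Miat and Snhg11. Whether depth accounts for the value was not tested.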

How the results depend on the processing

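Over the pseudocounts, filters, scalings, replicate block, depth term, smaller fits and other tools run, no gene was called by limma except where naïve 5 was left out. DESeq2 called 4 genes for SCI against sham and 233 for sham against naïve. With each library left out in turn, calls were 0 for SCI against naïve and for SCI against sham and ranged from 0 to 1752 for sham against naïve, the 1752 being without naïve 5. The replicate block gave 0 calls in each comparison, and libraries with the same number did not pair (r of their deviations -0.354 to 0.339). The median log2 difference of all genes for sham against naïve, 0.17, was 0.06 with median-ratio scaling and 0.0043 with quantile normalization.

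Directions of some differences depended on the setting, among them Malat1 for sham against naïve (-0.44) and Meg3 for SCI against naïve (-0.31), and the cause was not tested. For SCI against naïve, the depth term turned Malat1 to 0.031, Neat1 to 0.0735, Meg3 to 0.0217, Rian to 0.0467, Miat to 0.0131 and Snhg11 to 0.00337. Without naïve 1 and naïve 4, Neat1 was at 0.051, Meg3 at 0.0924, Rian at 0.0862, Mirg at -0.0466, Miat at 0.059 and Snhg11 at 0.0423. Quantile normalization turned Neat1 to 0.0377, Mirg to -0.0207 and Miat to 0.0692, and DESeq2 turned Mirg to -0.00389. For SCI against sham, the depth term turned Malat1 to -0.0825. For sham against naïve, it turned Malat1 to 0.113 and Mirg to -0.127, and Mirg was at -0.0672 with median-ratio scaling, -0.125 with quantile normalization, -0.0836 without naïve 1 and naïve 4, -0.0784 with DESeq2 and -0.0652 with edgeR. With each library left out, Neat1 ranged from -0.212 to 0.0615, Mirg from -0.0682 to 0.151 and Miat from -0.242 to 0.00415 for SCI against naïve, and Mirg from -0.0948 to 0.135 for SCI against sham and from -0.105 to 0.186 for sham against naïve. Reads limit the values of H19, whose 0 in naïve 1 allows up to 2.37 CPM.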
